A study of Mus musculus with 8 samples.

Results

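The tumour suppressor p53, encoded by Trp53, is a transcription factor that is held low by Mdm2 and switches on genes of cell cycle arrest, cell death, DNA repair and metabolism when it is stabilised. A core set of its direct targets was followed here in differentiating mouse myoblasts with and without UTX, the product of the X-linked gene Kdm6a, which takes methyl groups off lysine 27 of histone H3. The set holds 10 genes chosen by name (Mdm2, Ccng1, Trp53inp1, Zmat3, Bax, Perp, Phlda3, Sesn1, Sesn2 and Plk2) of 23472 gene names in the deposited tables. All 10 were found in each of the 3 tables. Bax shares 1 merged locus with Ftl1, the ferritin light chain gene, in the male table.

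In muscle, p53 and its targets are best known from the exit of myoblasts from the cell cycle, where the p53 target Cdkn1a is strongly induced, and from the response to damage. Several members close loops on p53 itself. Mdm2 is the ubiquitin ligase that degrades p53, cyclin G1 brings a phosphatase to Mdm2, and Trp53inp1 promotes p53 phosphorylation.

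The cells were primary myoblasts, grown from satellite cells, the stem cells of skeletal muscle, of B6/129 mice, sorted for a red reporter and differentiated for 24 h. The 8 libraries formed 6 groups: female UTX knockout (KO) with floxed UTX, Pax7-CreER and floxed Rosa26-TdTomato (1 library), male KO (1 library), female KI (2 libraries), and as their controls female wild type (WT) with the same Pax7-CreER and reporter but no floxed UTX (1 library), male WT (1 library) and female Ctrl-KI (2 libraries). All were grown with 20% serum, FGF and 2.5 µM 4-hydroxytamoxifen, which activates CreER. In the female KO library, whose label names Pax7-CreER, deletion depends on Pax7 expression. The labels give no genotype for the male, KI and Ctrl-KI libraries, do not say what allele KI carries, and give no age. Whether the libraries came from separate animals is not stated. Expression is in FPKM (fragments scaled to transcript length and to the number mapped), with 1 table for each comparison and a deposited lower and upper confidence bound. The KI table has 1 pooled column for each pair of libraries, so those replicates cannot be read apart. No single comparison has a p-value.

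Genes that reached 1 FPKM in at least 1 column were kept, which were 12344 of the female, 11440 of the male and 11084 of the KI comparison. The median width of the deposited intervals, relative to the FPKM itself, was 120% in female KO cells and 119% in female WT cells, 167% in male KO and 171% in male WT cells, and 39.8% in KI and 40.0% in Ctrl-KI cells. Read depth is not given. Among values under 0.3 FPKM the most frequent KO-to-WT ratio was 0.664 in females and 0.993 in males. That ratio was held by 33 of 1901 such loci in females and 93 of 6628 in males. It rests on few loci and gives the relative worth of 1 read only if these low values stand for equal read numbers. Kdm6a was 16.9 FPKM in female KO and 20.8 in female WT cells, 2.08 in male KO and 7.87 in male WT cells, and 13.2 in KI and 12.8 in Ctrl-KI cells. The labels do not give the floxed exons, so a whole-gene FPKM checks the deletion weakly. The muscle label held, with Myog, the regulator of differentiation onset, at 817 to 3424 FPKM in all columns. Rescaling to TPM (values rescaled to a common total) over loci with a gene symbol moved the median log2 ratio of all genes by 0.18 in females, 0.19 in males and 0.10 between KI and Ctrl-KI. None of the 29 member ratios kept in the tables changed sign under this or any other setting tried.

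Ccng1 carries a close match to the p53 response element just before its start. The element is 2 adjacent half-sites of 10 bases with no spacer, reads the same on both strands, and was searched in the 250 bases before RefSeq starts, with promoters for 7 of the 10 members (not for Trp53inp1, Zmat3 and Perp). The stretch before a Ccng1 start (GRCm38.p6, chr11:40755287-40755536, minus strand) is shown because Ccng1 is the member whose KO ratio differed most between the sexes, the merged Bax locus and Perp apart. Capitals mark the element, which fits at 19 of 20 bases.
Ccng1: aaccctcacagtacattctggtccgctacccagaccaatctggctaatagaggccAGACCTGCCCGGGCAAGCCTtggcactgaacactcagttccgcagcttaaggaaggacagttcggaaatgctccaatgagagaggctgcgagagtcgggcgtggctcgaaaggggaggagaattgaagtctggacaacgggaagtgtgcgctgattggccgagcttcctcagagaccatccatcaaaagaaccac
The best windows of Bax, Sesn1 and Mdm2 follow beside that of Cdkn1a, the p53 target that encodes the inhibitor p21, with capitals where the base fits the element.
Cdkn1a: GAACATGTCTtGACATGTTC
Bax: AGcaTAtCCCAGGCAAGCTT
Sesn1: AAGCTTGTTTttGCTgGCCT
Mdm2: GAACTTGCCTAGcgAccaTT
Their positions are chr17:29090928-29090947 (plus), chr7:45467090-45467109 (minus), chr10:41887266-41887285 (plus) and chr10:117710925-117710944 (minus) in the same build. The Cdkn1a window had 1 mismatch, Bax and Sesn1 had 3, and Mdm2 had 5; the p53-driven promoter of Mdm2 is known to lie in its first intron, outside this window. Of 27025 genes with a promoter, 0.788% held a window with at most 2 mismatches, 6.15% one with at most 3 and 74% one with at most 5. Ccng1 was the 1 member within 2 mismatches, and 3 of 7 members were within 3. A match describes the letters and does not show binding in these cells.

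In female KO cells, Trp53inp1 stood apart from the other members at 138 FPKM, against 49.3 in female WT cells, whereas Ccng1 and Phlda3 were the lowest relative to WT. Among 9 members at or over 1 FPKM, 1 was at least 2-fold higher and 0 were at least 2-fold lower, where 8.89% of all genes were past 2-fold in either direction and 4.49% in the higher direction. Deposited intervals were apart for 0 of the 9 members and for 0.899% of all genes.

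In male KO cells, 9 of 10 members lay above male WT by the ratio, and Sesn1 was the exception. The 2 ratios past 2-fold, against 16.4% of all genes (9.90% in the higher direction), were those of Perp, which entered only through the KO column, and of the locus that merges Bax with Ftl1. Deposited intervals were apart for 0 of the 10 and for 0.865% of all genes (0.603% higher, 0.262% lower).

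In KI cells 0 of 10 members were past 2-fold on this scale, where 4.75% of all genes were, and 9 had log2 ratios between -0.31 and 0.34. Perp was the exception, 5.49-fold higher by FPKM but with a log2 ratio of 0.97 because the added 1 FPKM is large beside its level. Its intervals were apart, as were those of 12.0% of all genes in this table of narrow intervals (8.27% higher, 3.73% lower), and those of the other 9 members overlapped.

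**Figure D1:**
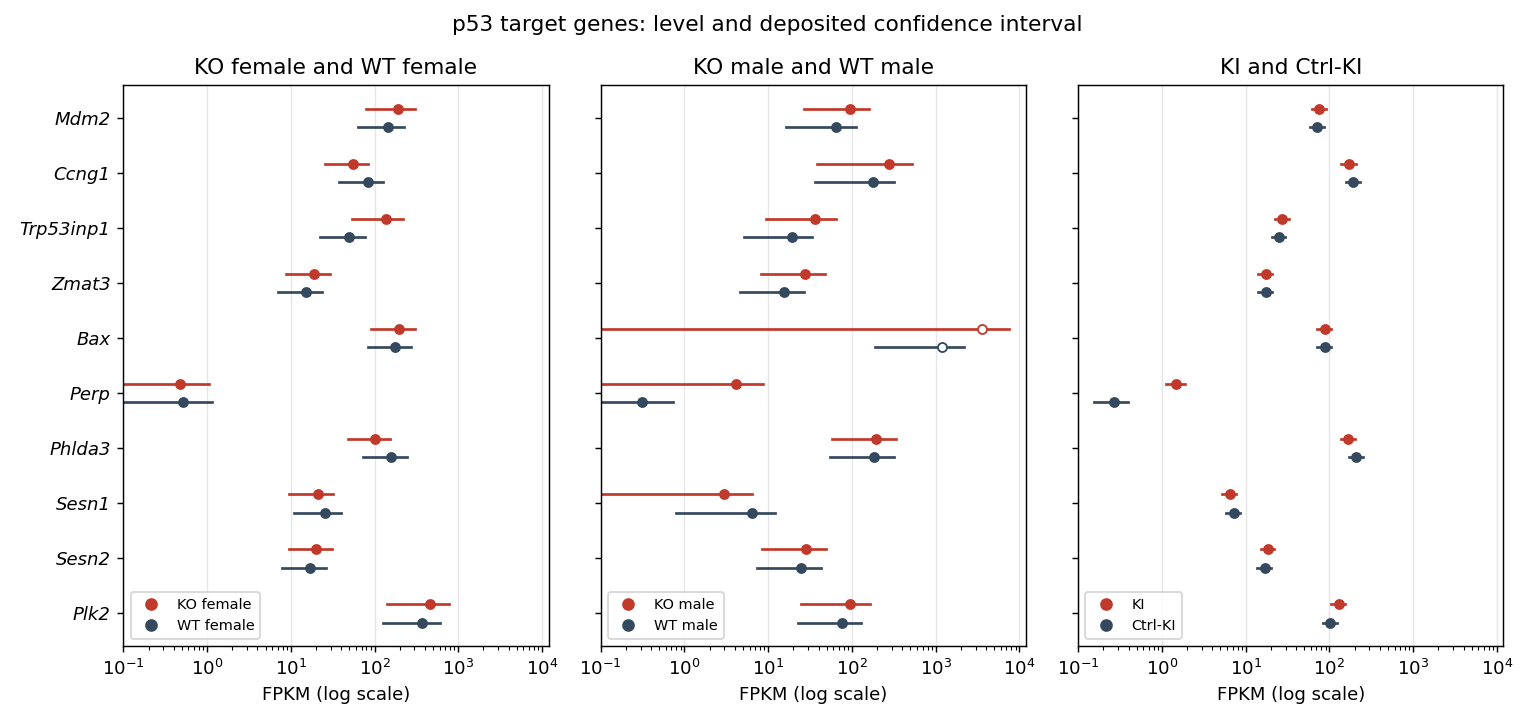
FPKM on a log axis of the 10 p53 target genes, with KO or KI (red) above its control (dark grey) in each table; points are deposited values, lines the deposited confidence intervals clipped at 0.1 FPKM, and open points the male locus that merges Bax with Ftl1. Intervals of the paired columns overlap for every gene in the female and male tables, and in the KI table for all but Perp.

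**Figure D2:**
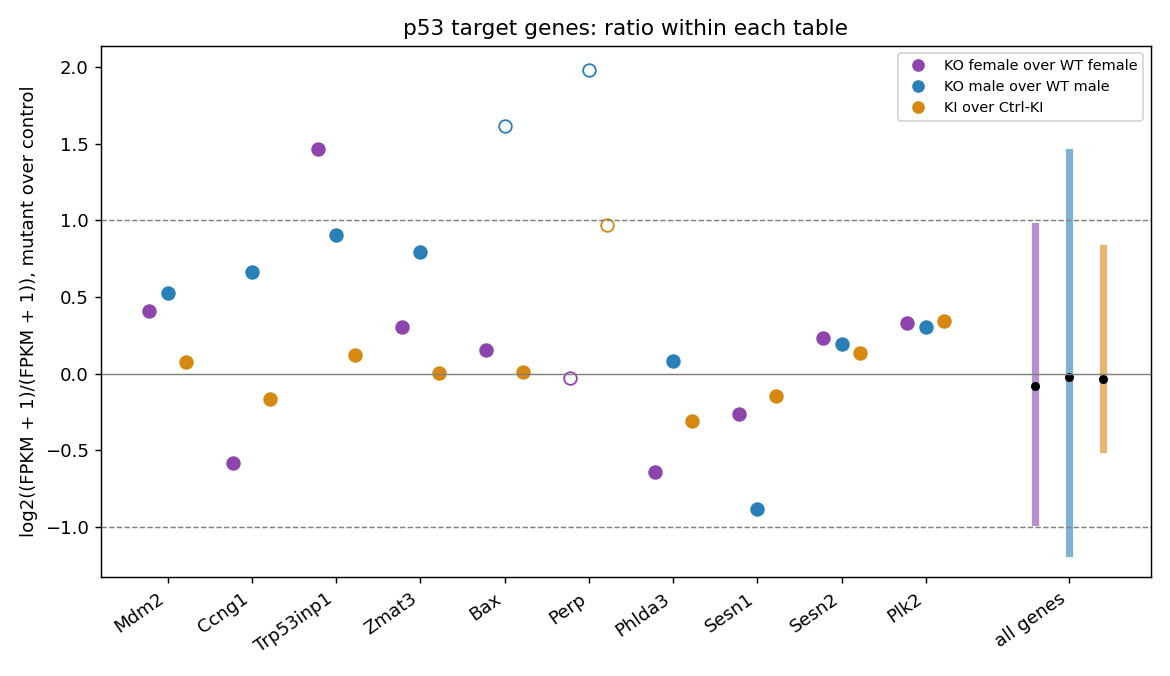
Log2((FPKM + 1)/(FPKM + 1)) of each member, mutant over control, in the female, male and KI tables. Open points are merged or under 1 FPKM in at least 1 column, bars at the right span the 5th to 95th percentile of all genes with the median as a black dot, and dashed lines mark 2-fold; Trp53inp1 in females is the only filled point past them.

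The feedback genes were well expressed in every column, and their ratios differed in sign. Mdm2 (mm9 chromosome 10, 117125961 to 117147772 in the female table) was 193 FPKM in female KO and 145 in female WT cells, and the bounds ran from 79.3 to 307 in KO and from 63.0 to 228 in WT. It was 93.7 FPKM in male KO and 64.8 in male WT cells, and 75.8 in KI and 71.7 in Ctrl-KI cells. The KO libraries of both sexes were thus above their WT library, with log2 ratios of 0.41 in females, 0.52 in males and 0.08 in the KI table, and with intervals that overlapped in each. A ratio at least as high was held by 18.7% of all genes in the female table and 20.4% in the male table.

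Ccng1, cyclin G1 (mm9 chromosome 11, 40562054 to 40568788), was 55.1 FPKM in female KO and 82.9 in female WT cells, bounded by 26.0 and 84.2 in KO and by 38.0 and 128 in WT. Male KO cells held 280.1 FPKM (38.6 to 522) and male WT cells 177 (36.7 to 317). The log2 ratio was -0.58 in females and 0.66 in males, on opposite sides of 0, and the difference has no test with 1 pair of libraries each. KI cells held 172 FPKM and Ctrl-KI cells 193, a ratio of -0.16. Its paralogue Ccng2, a FoxO-driven cyclin, was 228 FPKM in female KO and 125 in female WT cells, 34.0 in male KO and 29.8 in male WT cells, and 31.8 in KI and 26.7 in Ctrl-KI cells.

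Trp53inp1 encodes the p53-induced nuclear protein (mm9 chromosome 4, 11083588 to 11101524). In both KO tables it had the highest ratio of the members with their own locus and at least 1 FPKM in every column. In female KO cells it was 138 FPKM (54.5 to 222) and in female WT cells 49.3 (22.5 to 76.1), 2.80-fold higher, with a log2 ratio of 1.47 that 1.17% of all genes in the table reached. In male KO cells it was 36.7 FPKM (9.31 to 64.1) and in male WT cells 19.2 (5.10 to 33.3). The male ratio was 0.90, which 11.4% of all genes in that table reached. In KI cells Trp53inp1 was 27.4 FPKM and in Ctrl-KI cells 25.1, a ratio of 0.12. The paralogue Trp53inp2, an autophagy protein, had ratios below 0 with KO, at 45.6 FPKM in female KO and 91.2 in female WT cells and 50.9 in male KO and 80.6 in male WT cells. It was 70.5 FPKM in KI and 77.4 in Ctrl-KI cells.

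Zmat3 encodes a zinc finger protein that binds RNA (mm9 chromosome 3, 32233716 to 32266360). It was 19.1 FPKM in female KO and 15.3 in female WT cells, 27.7 in male KO and 15.6 in male WT cells, and 17.4 in KI and 17.3 in Ctrl-KI cells. The KO values were higher in both sexes, with log2 ratios of 0.31 and 0.79, and the KI ratio was 0.01. 4930429B21Rik is listed at the same locus in each table, so reads of the pair may not be fully separated.

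Among the cell death genes, Bax, which opens the mitochondrial outer membrane, could be read by itself only in the female and KI tables (mm9 chromosome 7, 52717065 to 52722268 in the female table). It was 196 FPKM in female KO and 176 in female WT cells, and 88.8 in KI and 88.4 in Ctrl-KI cells. Those values lie within each other's intervals, with log2 ratios of 0.15 and 0.01. In the male table the merged locus held 3609 FPKM in KO (0 to 7499) and 1178 in WT cells (188 to 2169), a log2 ratio of 1.61. Where the loci are apart, Ftl1 was 2161 FPKM in female KO and 1659 in female WT cells, and 1332 in KI and 905 in Ctrl-KI cells. Bax then made up 8.31% of the summed Bax and Ftl1 FPKM in female KO and 9.598% in female WT cells, and 6.25% in KI and 8.89% in Ctrl-KI cells, and the summed ratios were 0.36 and 0.52. The male value is therefore no measurement of Bax. Bak1, which acts beside Bax and is not a member, was 10.4 FPKM in female KO and 12.1 in female WT cells, 28.7 in male KO and 27.6 in male WT cells, and 26.6 in KI and 25.7 in Ctrl-KI cells.

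Perp, a small membrane protein best known from epithelial junctions, was the lowest member in 5 of the 6 columns (mm9 chromosome 10, 18564877 to 18576878). It was 0.480 FPKM in female KO and 0.513 in female WT cells, under the limit of 1 FPKM in both. It was 4.17 FPKM in male KO (0 to 8.73) and 0.311 in male WT cells (0 to 0.724), and 1.49 in KI (1.11 to 1.87) and 0.271 in Ctrl-KI cells (0.153 to 0.390). Perp passed the filter in these 2 tables only through the mutant column, which fixes its direction there. The log2 ratio was 1.98 in males and 0.97 in the KI table, where a pseudocount of 0.1 FPKM gave 3.38 and 2.10.

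Markers of other cell types were higher in the same 2 columns, and most of those kept were also higher in female KO cells. In the male table all 8 endothelial markers were higher in KO cells, and their summed level was 70.2 FPKM in KO and 1.35 in WT cells, with Emcn (endomucin) the highest ratio at 40.6 and 0.0268, Pecam1, at 3.20 and 0.0510, the lowest of the 4 kept with a pseudocount of 1 FPKM (Eng with 0.1 FPKM), and Tie1 listed at 0 in WT. In the KI table all 10 fibro-adipogenic markers, those of connective tissue cells, were higher in KI cells. Their sum was 381 FPKM in KI and 30.0 in Ctrl-KI cells. Col1a1 (collagen) had the highest ratio, at 158 and 0.515, and Lum was listed at 0 in Ctrl-KI. Pdgfra, at 1.19 and 0.162, had the lowest of the 9 kept with a pseudocount of 1 FPKM (Gsn with 0.1 FPKM). Only through the mutant column did 3 of the 4 endothelial markers kept in males and 7 of these 9 pass the filter. As for Perp, that fixes their direction there. Of the 6 immune markers 4 were higher in KI cells, with the macrophage lysozyme Lyz2 at 31.0 FPKM in KI and 0.282 in Ctrl-KI cells, Csf1r at 0.650 and 0.00621, Adgre1 at 0.316 and 0.00174, and Ptprc at 0.224 and 0.00345. Itgam was lower, at 0.331 FPKM in KI and 0.689 in Ctrl-KI cells, and Cd68, merged with other genes in the KI and male tables, was 354 and 356. Intervals were apart for Lyz2, Adgre1, Ptprc and Itgam. Lyz2 also passed the filter only through the KI column, and in the male table only through the KO column. Lyz2 was 7.94 FPKM in male KO and 0.681 in male WT cells, where the other immune markers with a locus of their own stayed under 1 FPKM in both columns. In the female table, where Perp was under 1 FPKM in both columns, 7 of 8 kept fibro-adipogenic markers were higher in KO cells, with intervals apart for 2. Pdgfra had the highest ratio (13.7 FPKM in KO and 2.46 in WT cells) and Gsn the lowest (31.0 and 41.5). The 6 endothelial and 2 immune markers kept there were higher, 1 of the immune markers being kept through 1 column only. The endothelial sum was 31.2 FPKM in KO and 18.1 in WT cells and the fibro-adipogenic sum 614 and 287. The other sums were 142 FPKM in male KO and 45.6 in male WT cells for fibro-adipogenic markers, and 9.35 in KI and 2.28 in Ctrl-KI cells for endothelial ones. In bulk RNA, more cells of a type and more RNA per cell cannot be told apart, and the part of these cells in the Perp values was not tested.

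Phlda3, a membrane-bound repressor of the kinase Akt (mm9 chromosome 1, 137662662 to 137665711 in the female table), was 101 FPKM in female KO (47.7 to 154) and 159 in female WT cells (72.4 to 245). It was 196 FPKM in male KO and 185 in male WT cells, and 169 in KI (137 to 201) and 209 in Ctrl-KI cells (170 to 249). The female and KI ratios lay below 0, at -0.65 and -0.31, and the male one at 0.08. Ccng1 and Phlda3 were the members with opposite signs in the sexes among the 8 that reached 1 FPKM and had their own locus in both tables.

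The sestrins, stress proteins that restrain the growth kinase complex mTORC1, split. Sesn1 (mm9 chromosome 10, 41530380 to 41628242) was 21.0 FPKM in female KO and 25.3 in female WT cells, 2.999 in male KO (0 to 6.45) and 6.37 in male WT cells (0.802 to 11.9), and 6.46 in KI and 7.24 in Ctrl-KI cells. It was the only member below its control in all 3 tables, with log2 ratios of -0.26, -0.88 and -0.14. Sesn2 (mm9 chromosome 4, 132048722 to 132066371 in the female table) was 20.3 FPKM in female KO and 17.1 in female WT cells, 28.6 in male KO and 25.0 in male WT cells, and 18.6 in KI and 16.8 in Ctrl-KI cells. Its ratios were 0.23, 0.19 and 0.13, all above 0 and all with overlapping intervals. Sesn3, driven by FoxO factors more than by p53, was 13.2 FPKM in female KO and 10.02 in female WT cells, 9.24 in male KO and 6.26 in male WT cells, and 6.30 in KI and 6.78 in Ctrl-KI cells.

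Plk2, a polo-like kinase of centriole duplication that is also induced by serum (mm9 chromosome 13, 111185252 to 111191051), had the most even ratios. It was 458 FPKM in female KO and 365 in female WT cells, 93.7 in male KO and 75.6 in male WT cells, and 130.3 in KI (106 to 155) and 103 in Ctrl-KI cells (83.2 to 122). The log2 ratios were 0.33, 0.31 and 0.34, and one at least as high was held by 22.2% of all genes among females, 28.6% among males and 12.4% between KI and Ctrl-KI. The difference between 458 FPKM in female KO and 93.7 in male KO cells crosses separately estimated tables and was not tested.

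Within a column FPKM orders genes per length. Plk2 led in both female columns, ahead of Bax at 196 FPKM in KO and 176 in WT cells. Phlda3 and Ccng1 held the top places, in either order, in the male, KI and Ctrl-KI columns with merged Bax left out. Most neighbours in the order could not be separated by their deposited intervals. Among adjacent members the intervals overlapped for 8 of 9 pairs in each female column, 8 of 8 in male KO and 7 of 8 in male WT cells, and 5 of 9 in each of the KI and Ctrl-KI columns. The step down to Perp was among the separated ones in every column but male KO, where Sesn1 was lowest and no pair was separated.

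With each sex taken as 1 measurement of the KO effect, 0 members passed the test. limma was fitted on the female and male log2 ratios of 10482 genes kept in both tables under the same name, with the difference between the sexes as the replicate error (1 residual degree of freedom). Of all 10482 genes 0 (0%) had an adjusted p under 0.05, with 0.0505 as the smallest, and 2079 had an unadjusted p under 0.05. Of the 8 members tested, 1 had such an unadjusted p; Bax and Perp were not in the fit. Trp53inp1 averaged a log2 ratio of 1.18 ± 0.24 (mean of 2 sexes ± moderated SE of limma; higher in 2 of 2 sexes), with an unadjusted limma p of 0.00346 and an adjusted p of 0.107. Mdm2 averaged 0.47 ± 0.20 (limma adjusted p 0.285), Zmat3 by 0.55 ± 0.25 (0.298) and Sesn1 by -0.57 ± 0.27 (0.316), each on the same side of 0 in 2 of 2 sexes. For Plk2 the mean was 0.32 ± 0.20 and for Sesn2 0.21 ± 0.22. Ccng1, at 0.04 ± 0.33, and Phlda3, at -0.28 ± 0.25, had sexes that disagreed in sign. Because limma moderates each SE with the spread of all genes, 1 degree of freedom can give a p, and a p over the threshold does not show that a gene was unchanged.

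**Figure D3:**
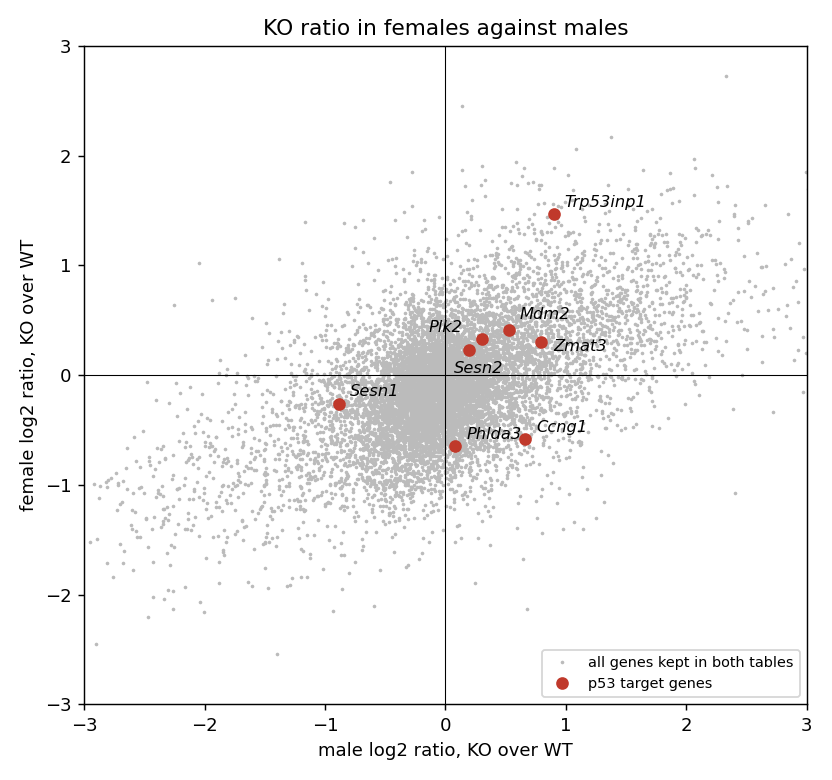
Log2 ratio of KO over WT in females (y) against males (x) for all genes kept in both tables (grey) and the 8 members among them (red), both axes limited to -3 to 3. Trp53inp1 is the farthest member in the upper right, Sesn1 lies in the lower left, and Ccng1 and Phlda3 lie below 0 in females and above 0 in males.

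Over the 8 members tested, the median log2 ratio was 0.27 in females, 0.42 in males and 0.04 in the KI table, beside -0.08, -0.02 and -0.04 over all genes. Ratios above 0 were held by 5, 7 and 5 of the 8, where 43.3%, 48.4% and 42.6% of all genes had one. The members were named for p53 and are not independent of each other, so these are descriptions.

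Trp53 itself was 52.7 FPKM in female KO and 51.7 in female WT cells, 85.7 in male KO (25.7 to 146) and 49.7 in male WT cells (14.4 to 85.0), and 54.6 in KI and 50.5 in Ctrl-KI cells. Its level was almost the same in both female columns, and the log2 ratio was 0.77 in males. Because p53 is controlled largely by protein turnover, its mRNA does not measure its activity. Mdm4, the partner of Mdm2 that masks p53, was 40.0 FPKM in female KO and 33.2 in female WT cells, 13.7 in male KO and 14.8 in male WT cells, and 17.9 in KI and 18.9 in Ctrl-KI cells.

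Cdkn1a had the highest FPKM of the p53 targets examined in each column, the merged Bax locus apart, and ran against most members. It was 580.1 FPKM in female KO (206 to 954) and 801 in female WT cells (252 to 1350), 806 in male KO (29.5 to 1583) and 1707 in male WT cells (0 to 3589), and 1432 in KI and 1687 in Ctrl-KI cells. KO values were lower in both sexes, with log2 ratios of -0.46 and -1.08, and the KI ratio was -0.24. limma gave -0.77 ± 0.23 over both sexes with an adjusted p of 0.158.

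Of 46 other genes of the pathway in 5 lists, 44 were kept for females, 43 for males and 42 for KI. At least 2-fold higher were 1, 10 and 0 of them, and at least 2-fold lower 1, 2 and 1. Chek1 is among the 10 in males and was kept only through the KO column, at 3.03 FPKM in KO and 0.735 in WT cells. The lists together had median log2 ratios of 0.07, 0.32 and 0.05. Among all genes 4.49%, 9.90% and 3.86% were 2-fold higher and 4.40%, 6.47% and 0.893% lower. Intervals were apart for 0, 0 and 7 of the kept genes, and for 0.899%, 0.865% and 12.0% of all genes. limma over both sexes called 0 of the 41 it tested.

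Among p53 and its regulators, the checkpoint kinase Chek1 had the highest female ratio (4.67 FPKM in KO and 2.35 in WT cells) and the p53-binding Trp53bp1 the lowest (14.2 and 15.8). In males the checkpoint kinase Chek2 was the highest (5.38 FPKM in KO and 1.37 in WT cells) and the p53 homologue Trp63 the lowest (0.623 and 1.63, kept only through the WT column). In the KI table Cdkn2a was the highest at 136 FPKM in KI and 79.2 in Ctrl-KI cells, with intervals apart. Its products include the Mdm2 inhibitor Arf, whose transcript a whole-gene FPKM does not separate. Chek2 was the lowest in the KI table at 1.03 and 1.37. Of the arrest genes 3 of 7 were 2-fold higher in male KO cells, led by the mitotic protein Gtse1 (20.3 FPKM in KO and 4.05 in WT cells), while Cdkn1a was the lowest in all 3 tables. Among all genes 9.90% were 2-fold higher in males, and intervals were apart for 0 of the 7 arrest genes there. The kinase Plk3 had the highest ratio of this list in females (10.7 FPKM in KO and 6.35 in WT cells) and in the KI table (6.09 in KI and 4.01 in Ctrl-KI cells, intervals apart). Proliferation markers were higher in the same male library, 6 of 6 at least 2-fold, with 1 of them kept only through the KO column. Their summed level was 83.8 FPKM in KO and 13.4 in WT cells. In the female KO library 4 of the 6 markers were at least 2-fold higher. Their part in the arrest list was not tested.

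Of the cell death genes, Apaf1, the scaffold of the apoptosome, was at least 2-fold higher in both KO libraries, at 24.3 FPKM in female KO and 10.04 in female WT cells and 9.57 in male KO and 3.46 in male WT cells. limma gave a mean log2 ratio of 1.22 ± 0.23 for Apaf1, with an adjusted p of 0.0997. It was also the highest of its list in the KI table (5.55 FPKM in KI and 3.42 in Ctrl-KI cells, intervals apart). The death-domain gene Pidd1, listed under its older symbol Lrdd, was the highest in males (5.55 FPKM in KO and 1.25 in WT cells) and the death receptor Fas the lowest (1.89 and 2.73). Ei24 was the lowest in females, at 44.3 FPKM in KO and 64.5 in WT cells. Bid, the activator of Bax, was the 1 pathway gene past 2-fold in the KI table, at 7.74 FPKM in KI (6.20 to 9.28) and 23.8 in Ctrl-KI cells (19.3 to 28.3). In the KO tables Bid was 5.43 FPKM in female KO and 4.77 in female WT cells and 36.0 in male KO and 22.0 in male WT cells.

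Of the repair genes, the nuclease gene Ercc5 was the highest in females (16.9 FPKM in KO and 14.3 in WT cells) and the methyltransferase Mgmt the lowest (5.02 and 6.92). In males the polymerase Polk was the highest (8.11 FPKM in KO and 3.20 in WT cells) and the polymerase Polh the lowest (10.2 and 10.4). Polk was also the highest of the list in the KI table (6.37 FPKM in KI and 4.29 in Ctrl-KI cells) and Mgmt the lowest (17.5 and 26.8, intervals apart). Of the metabolic and stress genes, the glutaminase Gls2 was the highest in females (5.71 FPKM in KO and 2.56 in WT cells) and the adenylate kinase Ak1 the lowest (36.2 and 90.1). The epoxide hydrolase Ephx1 was the highest in males (44.7 FPKM in KO and 11.9 in WT cells) and in the KI table (19.4 in KI and 12.7 in Ctrl-KI cells, intervals apart), the receptor Eda2r the lowest in males (29.5 in KO and 65.1 in WT cells) and Ak1 the lowest in the KI table (131 in KI and 161 in Ctrl-KI cells). Ak1 is also a muscle energy enzyme, and most muscle markers were lower in the KO libraries, 9 of 10 in females and 8 of 9 in males. Their summed levels were 3143 FPKM in female KO and 6978 in female WT cells and 3521 in male KO and 12624 in male WT cells, with Ckm the lowest ratio (20.2 FPKM in female KO and 147 in female WT cells). The stem cell factor Pax7 was the exception, at 5.54 FPKM in female KO and 4.33 in female WT cells and 16.3 in male KO and 5.82 in male WT cells. Among all genes, ratios above 0 were held by 43.3% in females and 48.4% in males. In the KI table the muscle markers had a median log2 ratio of -0.10, with 3 of 10 above 0 and 0 past 2-fold. Their part in the Ak1 values was not tested.

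**Figure D4:**
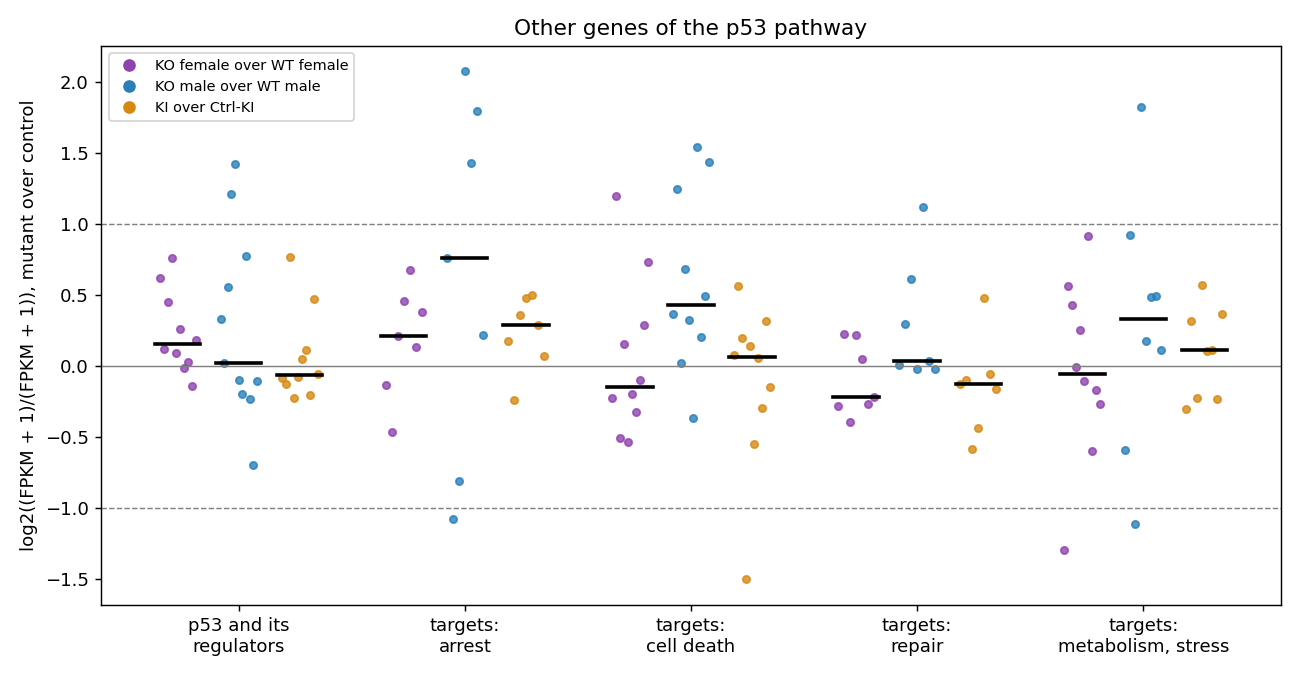
Log2((FPKM + 1)/(FPKM + 1)), mutant over control, of each kept gene in 5 lists of other p53 pathway genes, with the list median as a black bar and 2-fold as dashed lines. Male ratios spread most, with 3 of 7 arrest genes and 3 of 10 cell death genes above the upper line, where 9.90% of all genes in males lie. Bid is the 1 gene past a line in the KI table.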

How the data were processed

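RNA was sequenced from 8 libraries of differentiating myoblasts, grouped by their titles. The build mm9, Cufflinks 2.2.1, Cuffdiff, TopHat2 2.0.12, edgeR, Bowtie2 2.2.4, bedtools 2.16.2 and HTSeq 0.6.1 are named, per the submitters' processing notes, which give no roles; the confidence level is not stated. The authors deposited FPKM with lower and upper bounds in 3 tables, per the file headers. Widths of 228 of 234 microRNA loci matched RefSeq lengths only if the first base is number 0, and 1 was added to each start. Strand is not stated, so overlapping genes are uncertain.

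Loci without a symbol or with a status other than OK, and genes that reached 1 FPKM in no column, were dropped. Ratios were log2((FPKM + 1)/(FPKM + 1)) within a table, so changes of low genes are understated. A gene past 2-fold on this scale was counted. The KO ratios of both sexes were fitted with limma 3.58.1 (R 4.3.3, mean-variance trend, Benjamini-Hochberg at 0.05 over all genes). The code was checked on simulated ratios with the same noise for every gene, which does not test its assumptions on these data. The p-values rest on 1 female and 1 male ratio per gene, moderated by the spread of all genes. The spread between the sexes mixes any true sex difference with library noise, which may be technical. Members and lists were chosen with earlier results of these data known. Named are all members, Kdm6a, Trp53, Cdkn1a, Mdm4, 4 paralogues (Sesn3, Ccng2, Trp53inp2, Bak1) and the highest and lowest gene of each p53 or marker list by ratio where that list is described; Ftl1, 4930429B21Rik, Myog, Tie1, Lum, Csf1r, Ptprc, Adgre1, Itgam, Eng and Gsn under another pseudocount, and the values of Apaf1 in males and of Bid with KO, were chosen after seeing them, as were the sum of Bax and Ftl1 and the counts without Bax and Perp. Older symbols were matched through RefSeq for Pidd1, Tigar and Adgre1. Sequences are from RefSeq (GRCm38.p6); no coordinate was converted. Scripts ran under python 3.11.15 with numpy 2.4.6 and pandas 2.3.3.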

Additional observations from a re-analysis of the deposited data

Results flagged for a closer look

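Of the 37 named members and pathway genes, 8 were counted with a KO ratio below 0 in 1 sex and above 0 in the other. Only genes kept at a locus of their own in both KO tables could count, which left out Bax, Perp, Trp63 and Gls2. Perp had -0.03 in females, under 1 FPKM in both columns, and 1.98 in males. Its female ratio was above 0 with TPM (0.04) and after centring on the median (0.05). The share of all genes with opposite signs was not counted. With 1 pair of libraries each, none of these differences was tested. Members among the 8 were Ccng1 and Phlda3. The male minus female difference in log2 ratio was 1.24 for Ccng1 (0.66 in males, -0.58 in females) and 0.73 for Phlda3 (0.08 and -0.65). Among the other pathway genes it was 1.86 for Pidd1 (1.54 in males, -0.32 in females), 1.01 for Mgmt (0.62 and -0.40), 0.86 for Ei24 (0.32 and -0.53), 0.26 for Bak1 (0.05 and -0.20), -0.36 for Mdm4 (-0.10 and 0.26) and -0.24 for Polh (-0.02 and 0.22). The count depends on the scaling. With TPM, Mdm4 (0.07 in males, 0.44 in females) and Polh (0.15 and 0.40) had ratios above 0 in both sexes. Deposited intervals of the paired columns overlapped for each of the 8 genes in both sexes. Pidd1, Mgmt, Ei24 and Polh were named because each had the highest or lowest ratio of its list in at least 1 table. That choice favours a difference between the sexes.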

How the results depend on the processing

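With a pseudocount of 5 FPKM, genes past 2-fold numbered 442 in females, 918 in males and 224 in the KI table, against 1097, 1872 and 527 with 1 FPKM, and members in males 1 (the merged Bax locus) against 2. A pseudocount of 0.1 FPKM gave 1747 in females, 3 members in males against 2 (Sesn1 added, at -1.06) and 1 member, Perp, in the KI table against 0. A filter of 5 FPKM gave 344 genes in the KI table and 1 member in males. Centring on the median and TPM over loci with a symbol each brought 1 member, Perp, past 2-fold in the KI table, and TPM gave 3 members in males (Trp53inp1 added, at 1.10, so past 2-fold in both sexes). Centring moved the share of higher genes among those past 2-fold to 63.2% in females, 62.0% in males and 84.4% in the KI table, and TPM to 73.7%, 72.2% and 86.3%, against 50.5%, 60.5% and 81.2%. By non-overlapping intervals the counts were 111, 99 and 1330 genes, and 0, 0 and 1 members, against 1, 2 and 0 past 2-fold. limma called 0 genes with the settings used, 130 with a filter of 5 FPKM (7732 genes tested), and 1 each with a pseudocount of 0.1 FPKM and with TPM; members called were 0 in every fit. The adjusted p of Trp53inp1 ranged from 0.0724 to 0.663. With 1 sex left out Ccng1 ran from -0.58 (females alone) to 0.66 (males alone) around a mean of 0.04, and Phlda3 from -0.65 to 0.082 around -0.28; leaving out either sex leaves no test. The causes were not tested, apart from fewer genes or values entering by construction. No paired analysis was possible because the KI table holds 1 pooled column per group. Unknown depth and single libraries limit every ratio.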
